A study of Mus musculus with 12 samples.

Results

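Transcripts for 10 proteins of the acrosome and the sperm surface were followed in RNA of laser-captured mouse Leydig cells: Acr, Acrbp, Acrv1, Spaca3, Spaca1, Zpbp, Spam1, Izumo1, Adam2 and Adam3. The members were all non-control probes that carried one of these gene names in the array files, which gave 12 of 41174 probes and 10 of 27670 genes. DEHP mice were gavaged for 21 days with 200 mg per kg daily of the plasticiser di-(2-ethylhexyl)-phthalate (DEHP) in corn oil, and vehicle mice with corn oil alone. All were C57BL/6J males, 21 weeks old, and the RNA came from frozen sections of the right testis. Each of 2 DEHP mice (numbers 1 and 4) was hybridised against each of 3 vehicle mice (numbers 1, 2 and 4) in both dye orientations on 2-colour Agilent arrays, which gave 12 arrays and 5 animals. Per the labels' protocols, cells were cut from sections stained with hematoxylin and eosin, with the laser set for each section so as to limit contamination, and the RNA was amplified before labelling.

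The acrosome is a secretory vesicle that forms over the nucleus of the spermatid and empties when the sperm meets the egg coat, the zona pellucida. Proacrosin, the product of Acr, is stored there with its binding protein Acrbp, and in the mouse ADAM proteins on the sperm surface are needed for sperm to enter the oviduct and bind the zona. Fusion of the sperm with the egg then needs Izumo1, which is exposed once the acrosome has emptied. These genes are transcribed in male germ cells inside the tubules, and Leydig cells are the steroid-producing cells between the tubules.

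The probes are 60 bases long and had 35.0% to 55.0% G and C. Those printed here, in lower case throughout, are the sense sequences for Spam1, Adam2 and Spaca3, which had unlike patterns between mice, together with the 3 probes whose positions span from 570 to 2884 bases of the genome. All positions are those of the array files on mouse assembly mm7.
Spam1, chr6:24740168-24740227, plus strand: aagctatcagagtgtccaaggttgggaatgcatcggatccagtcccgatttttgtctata
Adam2, chr14:60890159-60890218, minus strand: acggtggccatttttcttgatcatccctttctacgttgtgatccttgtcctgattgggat
Spaca3, chr11:80946105-80946164, plus strand: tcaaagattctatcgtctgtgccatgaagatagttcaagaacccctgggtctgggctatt
Izumo1, chr7:41800312-41801057, plus strand: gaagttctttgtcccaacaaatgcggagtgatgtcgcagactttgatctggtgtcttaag
Zpbp, chr11:11367314-11370197, minus strand: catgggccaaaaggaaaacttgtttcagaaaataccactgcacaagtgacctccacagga
Spaca1 (the probe with the lower mean intensity), chr4:34306956-34307525, minus strand: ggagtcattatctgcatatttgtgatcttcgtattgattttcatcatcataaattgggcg
The span in the genome was 746 bases for Izumo1, 2884 bases for Zpbp and 570 bases for the Spaca1 probe. The probe of Acr lies on chromosome 15, that of Acrv1 on chromosome 9, that of Adam3 on chromosome 8 and those of Acrbp on chromosome 6. Exon and UTR annotation of this assembly was not used here.

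A level is a mouse's log2 value against the average of all 5 mice, so that a gene's values add up to about 0. All 12 member probes passed the filter on dim signals and none was saturated. Of these, 10 were well above background on every array of every mouse. The probes of Zpbp and Izumo1 were dim. Zpbp was well above background on 2 of 6 arrays of DEHP mouse 1 and 6 of 6 of DEHP mouse 4, and on 4 of 4, 2 of 4 and 3 of 4 arrays of vehicle mice 1, 2 and 4. For Izumo1 these numbers were 2 of 6 and 5 of 6 in the DEHP mice, against 4 of 4, 2 of 4 and 3 of 4 in the vehicle mice.

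DEHP mouse 4 and vehicle mouse 1 stood apart from the other 3 mice in several lists of cell type markers. This split was absent from the medians of Sertoli cell markers (-0.15 and -0.15 in DEHP mice, against -0.01, 0.09 and 0.18 in vehicle mice). It was also absent from those of spermatogonial markers (-0.20 and 0.12, against -0.04, 0.02 and -0.04). The median of 18 Leydig cell markers lay at 0.68 and -0.78 in DEHP mice 1 and 4, against -0.64, 0.33 and 0.55 in vehicle mice 1, 2 and 4. The median of 33 spermatid markers, none of them a member, lay at -0.03 and 0.70 in the DEHP mice, against 0.28, -0.52 and -0.41 in the vehicle mice. The labelled cell type was present in all 5: Insl3, a Leydig cell hormone, was well above background on all 12 arrays in the DEHP and in the vehicle channel. Macrophage markers (median 0.40 and -0.24 in DEHP mice, against -0.39, 0.08 and 0.44 in vehicle mice) and myoid markers (0.05 and -0.72, against -0.43, 0.76 and 0.26) were also low in DEHP mouse 4 and vehicle mouse 1. In bulk material fewer cells of a type and less RNA per cell cannot be told apart.

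The first comparison asked whether DEHP changed these transcripts. None of the 10 passed the test over 15830 genes in limma (0% of all genes passed), and for each of them the DEHP and vehicle mice overlapped. Of all genes, 3.95% had both DEHP mice above every vehicle mouse and 5.22% had both below. Differences lay above 0 for 9 members and below 0 for 1, with a median of 0.17, where 48.3% of all genes lay above 0 and the median was -0.01. Unadjusted p ran from 0.267 to 0.933 and every adjusted p was 1.00 in limma. The 95% intervals, which are not adjusted for the number of genes, reached from 0.65 to 1.70 to either side of the difference. Smaller changes than these could not pass with these mice, and larger ones could be missed too. Over all genes the differences ranged from -1.28 to 1.92 and none passed the adjusted test.

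Among the proteins stored in the acrosome, Acr, the protease acrosin, was at -0.11 and 0.61 in DEHP mice 1 and 4, against 0.29, -0.37 and -0.42 in vehicle mice 1, 2 and 4. DEHP mouse 4 was highest, and DEHP mouse 1 lay between vehicle mouse 1 and the other vehicle mice. The group difference was 0.42 (SE 0.34, 95% interval -0.42 to 1.26, n = 2 DEHP and 3 vehicle mice). Leaving out DEHP mouse 1 gave 0.78, leaving out vehicle mouse 1 gave 0.65 and leaving out DEHP mouse 4 gave 0.057.

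Acrbp, which keeps proacrosin in its stored form, was at -0.13 and 0.33 in DEHP mice, against 0.31, -0.21 and -0.31 in vehicle mice. The highest DEHP mouse and the highest vehicle mouse were nearly level, and the difference was 0.17 (SE 0.28, interval -0.52 to 0.87). The other Acrbp probe gave -0.15 and 0.33 in DEHP mice, against 0.07, -0.23 and -0.02 in vehicle mice. It placed vehicle mouse 1 lower and differed by 0.15.

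Acrv1, a protein of the acrosomal matrix, was at -0.49 and 0.70 in DEHP mice, against 0.93, -0.74 and -0.40 in vehicle mice. Vehicle mouse 1 was above both DEHP mice, and the difference of 0.18 had an SE of 0.60 (interval -1.32 to 1.67). Spaca3, a lysozyme-like acrosomal protein, had the same order of mice, with -0.39 and 0.62 in DEHP mice, against 0.87, -0.75 and -0.35 in vehicle mice. Its difference was 0.19 (SE 0.56, interval -1.20 to 1.58).

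Spaca1, a membrane protein needed in the mouse to shape the acrosome, was the member with a difference below 0. It was at -0.78 and 0.70 in DEHP mice, against 0.89, -0.84 and 0.03 in vehicle mice. The difference was -0.067 (SE 0.64, interval -1.65 to 1.52). The other Spaca1 probe, whose sequence is printed above, gave -0.76 and 0.51 in DEHP mice, against 1.01, -0.86 and 0.10 in vehicle mice, and differed by -0.21. Both probes placed vehicle mouse 1 highest and vehicle mouse 2 lowest.

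Zpbp, a zona-binding protein of the acrosome, was at -0.24 and 0.32 in DEHP mice, against 0.19, -0.25 and -0.02 in vehicle mice. The difference was 0.067 (SE 0.26, interval -0.58 to 0.72). Spam1, a hyaluronidase anchored in the sperm membrane, had the widest range. It was at -0.68 and 1.23 in DEHP mice, against 0.61, -0.93 and -0.23 in vehicle mice. The difference was 0.46 (SE 0.69, interval -1.24 to 2.16). Leaving out DEHP mouse 1 gave 1.42, leaving out DEHP mouse 4 gave -0.50, and leaving out vehicle mouse 1 or 2 gave 0.85 or 0.085.

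Izumo1, the fusion protein of the sperm, was at -0.21 and 0.24 in DEHP mice, against 0.48, -0.28 and -0.24 in vehicle mice, and its difference was 0.03 (SE 0.32, interval -0.76 to 0.81). Vehicle mouse 1 was highest, and the other vehicle mice were close to DEHP mouse 1.

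Adam2, the beta subunit of the sperm surface protein fertilin, was at -0.30 and 0.44 in DEHP mice, against -0.08, -0.18 and 0.11 in vehicle mice. All vehicle mice lay between the DEHP mice, and the difference was 0.12 (SE 0.28, interval -0.57 to 0.82). Adam3, which in the mouse is needed for sperm to bind the zona and enter the oviduct, was at -0.22 and 0.56 in DEHP mice, against 0.08, -0.15 and -0.27 in vehicle mice. Here vehicle mouse 4 was lowest, just under DEHP mouse 1, and the difference was 0.28 (SE 0.29, interval -0.44 to 1.01).

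**Figure D1:**
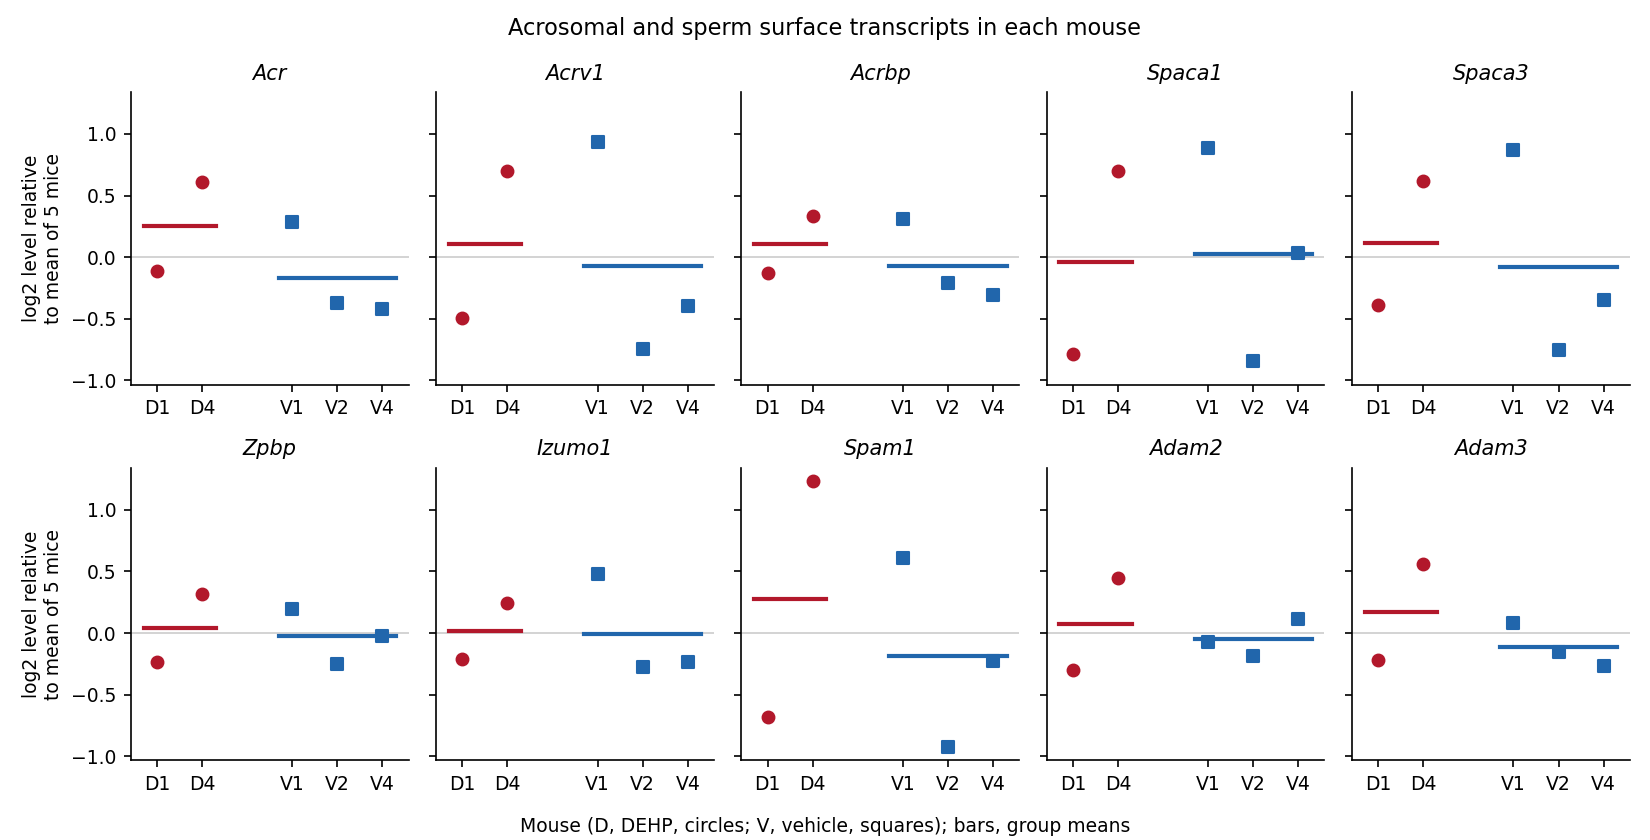
Log2 level of each of the 10 transcripts (vertical axis) against the average of all 5 mice, in DEHP mice D1 and D4 (red circles) and vehicle mice V1, V2 and V4 (blue squares), with group means as bars. D4 and V1 lie above the other 3 mice in 9 of the 10 panels, Adam2 being the exception.

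**Figure D2:**
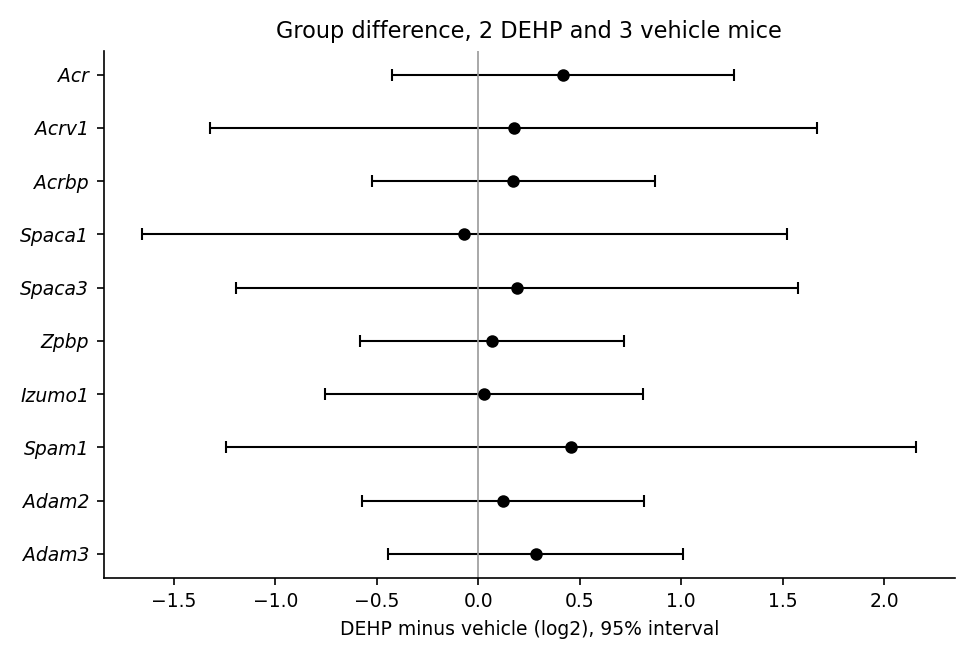
DEHP minus vehicle difference in log2 level (horizontal axis) for each transcript, with 95% intervals from limma on 2 DEHP and 3 vehicle mice. All 10 intervals include 0, and they are widest for Spam1, Spaca1 and Acrv1.

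The ratios of the hybridised pairs give this spread array by array. Each pair was measured on 2 arrays of opposite dye. The arrays of a pair lay within 0.08 of their mean for Spam1, 0.16 for Acrv1 and 0.09 for Adam2. They lay farthest apart for the dim Izumo1, within 0.45. There DEHP mouse 4 over vehicle mouse 4 had log2 ratios of 0.73 and -0.17 on its 2 arrays. Spam1 in DEHP mouse 4 had log2 ratios of 0.60, 2.21 and 1.43 over vehicle mice 1, 2 and 4. In DEHP mouse 1 the ratios over the same mice were -1.26, 0.19 and -0.43, so that the sign turned with the DEHP mouse in 2 of the 3 pairings. Acrv1 in DEHP mouse 4 had a ratio of -0.28 over vehicle mouse 1 and of 1.49 over vehicle mouse 2, and in DEHP mouse 1 ratios of -1.38 and 0.20 over the same mice. Adam2 was above all 3 vehicle mice in DEHP mouse 4, by 0.52, 0.64 and 0.32, and below all 3 in DEHP mouse 1, by log2 ratios of -0.22, -0.13 and -0.40.

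The spread within groups was then measured directly, as DEHP mouse 4 minus DEHP mouse 1. This test rests on repeated arrays of the same extracts, so it compares extracts and not conditions. All 10 transcripts were higher in DEHP mouse 4 at an adjusted p under 0.05 in limma, with a median of 0.76 (36.3% of all genes were higher and 41.1% lower by this test). Spam1 differed most, by 1.92 (SE 0.04, adjusted p = 3.80e-11 in limma), or 3.78-fold. Spaca1 followed with 1.49 (SE 0.04), Acrv1 with 1.19 (SE 0.04) and Spaca3 with 1.01 (SE 0.06). Adam3 at 0.78, Adam2 at 0.74 and Acr at 0.72 were close to each other, with SEs of 0.07, 0.03 and 0.03. The smallest differences were those of Zpbp at 0.55 (SE 0.08), Acrbp at 0.46 (SE 0.03) and Izumo1 at 0.46 (SE 0.14, adjusted p = 0.0108 in limma). Zpbp and Izumo1 were dim in DEHP mouse 1, so that their differences are less precise. Their mean signals there were 72 and 80 before background correction, and the processing added an offset of 50. The size of their differences and their place among the smallest are thus uncertain.

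The sizes and part of the order depended on the processing, while all 10 stayed higher. With the scanner software's processed signals Spam1 differed by 2.24, Zpbp by 2.17 (adjusted p = 1.01e-05 in limma) and Izumo1 by 1.29, so that Zpbp came next to Spam1 and Acrbp was last at 0.60. The members' median was then 1.25. With each array centred on its median in place of loess, the members' median was 1.58, but the median of all genes was 0.30, against -0.05 with loess, and 54.7% of all genes were higher and 16.3% lower. Spam1 was then at 2.46, Spaca1 at 2.34, Acrv1 at 1.91, Adam3 at 1.80, Spaca3 at 1.59, Adam2 at 1.57, Acr at 1.52 and Acrbp at 1.31, while Zpbp at 0.82 and Izumo1 at 0.74 were lowest.

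Within the vehicle group, vehicle mouse 1 was set against the mean of vehicle mice 2 and 4. Of the 10 transcripts, 9 were higher in vehicle mouse 1 and none was lower, with a median of 0.71 (33.9% of all genes were higher and 38.2% lower). With loess Acrv1 differed most here, by 1.50 (SE 0.05, adjusted p = 3.01e-10 in limma), ahead of Spaca3 at 1.42 (SE 0.06), Spaca1 at 1.29 (SE 0.04) and Spam1 at 1.18 (SE 0.05). Izumo1 differed by 0.74 (SE 0.15), Acr by 0.68 (SE 0.03), Acrbp by 0.56 (SE 0.03) and Zpbp by 0.33 (SE 0.09). The ADAM members were lowest in this order, with Adam3 at 0.30 (SE 0.07, adjusted p = 0.00292 in limma) and Adam2 at -0.04 (SE 0.03, adjusted p = 0.293 in limma). Adam2 thus differed by 0.74 between the DEHP mice and was not called between the vehicle mice, and the difference between these contrasts was not tested. With the processed signals 9 were again higher and the median was 1.28, but Izumo1 came first at 2.21, ahead of Acrv1 at 1.68 and Spaca3 at 1.65. Zpbp was then at 1.16, and Adam3 at 0.36 and Adam2 at 0.07 were still lowest. With median centring Acrv1 came first at 1.46, Adam3 was at 0.50, Zpbp at 0.27 and Adam2 at -0.0015.

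**Figure D3:**
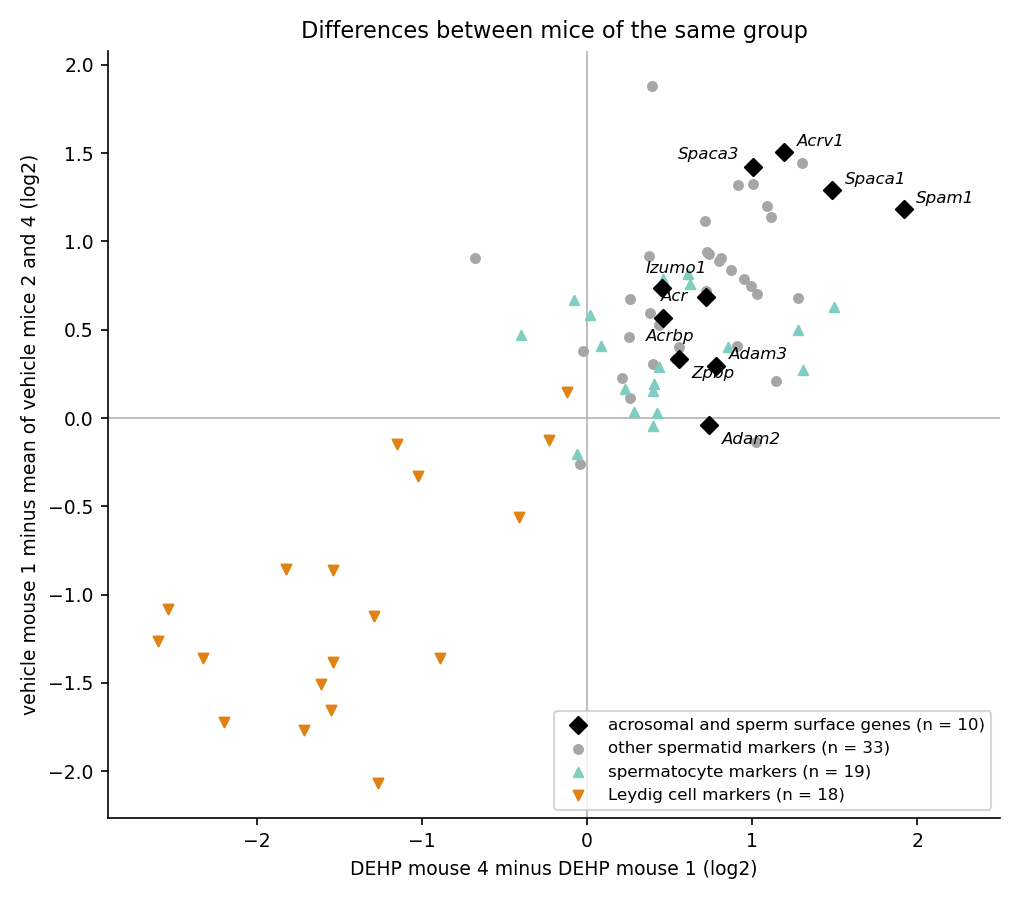
Difference in log2 level between DEHP mouse 4 and DEHP mouse 1 (horizontal axis) and between vehicle mouse 1 and the mean of vehicle mice 2 and 4 (vertical axis), for the 10 transcripts (black diamonds), 33 other spermatid markers (grey circles), 19 spermatocyte markers (green triangles) and 18 Leydig cell markers (orange triangles). The 10 transcripts lie to the right of 0 with most of the spermatid markers, Spam1 farthest, and Adam2 lies close to 0 on the vertical axis, while most Leydig cell markers lie below 0 on both axes.

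Markers of other cells moved in the same contrasts. Of all genes, 36.3% were higher and 41.1% lower between the DEHP mice, and 33.9% and 38.2% in the vehicle contrast. Of 33 spermatid markers, 30 were higher and 1 lower in DEHP mouse 4 than in DEHP mouse 1. In vehicle mouse 1, 29 were higher and 1 lower than in the mean of vehicle mice 2 and 4. The median was 0.72 in both contrasts. Prm2, a protamine of late spermatids, was at 0.02 and 0.82 in DEHP mice, against 0.32, -0.52 and -0.63 in vehicle mice, while Odf2, an outer dense fibre protein, was at 0.29 and 0.24, against -0.35, 0.11 and -0.29. Of 19 spermatocyte markers, 14 were higher and 1 lower in the DEHP contrast and 12 were higher and 1 lower in the vehicle contrast, with medians of 0.41 and 0.40. Ldhc, the germ cell lactate dehydrogenase, differed by 1.28 between the DEHP mice and by 0.50 in the vehicle contrast, whereas Syce1, a synaptonemal complex protein, differed by 0.02 and 0.58.

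Of 18 Leydig cell markers, 17 were lower and 0 higher in DEHP mouse 4, and 16 were lower and 0 higher in vehicle mouse 1. Insl3 was at 0.91 and -1.29 in DEHP mice, against -1.02, 0.50 and 0.90 in vehicle mice. Ptgds, a prostaglandin synthase, was at 0.94 and -1.60, against -0.50, 0.09 and 1.08. Of 11 macrophage markers, 7 were lower and 0 higher in each contrast, and Lyz2, a lysozyme, differed by -2.40 between the DEHP mice and by -1.61 in the vehicle contrast. C1qc, a complement component, differed by -1.71 and -1.17. Of 8 myoid markers, 7 were lower and 0 higher in the DEHP contrast and 5 were lower and 0 higher in the vehicle contrast, where the contractile genes Myl9 and Acta2 differed by -1.49 and -1.50. With median centring 3 myoid markers were lower and 1 higher in the DEHP contrast (16.3% of all genes were then lower and 54.7% higher).

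Sertoli cell markers were divided, with 4 of 15 higher and 6 lower in each contrast. Cst9, a cystatin, was at -0.23 and -0.56 in DEHP mice, against 0.57, -0.07 and 0.29 in vehicle mice, and Amhr2, a hormone receptor, at 0.26 and -0.79, against -0.35, 0.41 and 0.47. Of 9 spermatogonial markers, 5 were higher and 2 lower in the DEHP contrast and 3 were higher and 3 lower in the vehicle contrast. Stra8, which starts meiosis, differed by -0.22 and -0.91, and Uchl1, a ubiquitin hydrolase, by 0.39 and -0.30. Of 7 endothelial markers, 7 were lower in the DEHP contrast and 6 in the vehicle contrast. The receptor genes Flt1 and Tek differed by -0.21 and -1.28 between the DEHP mice and by -0.75 and -1.61 in the vehicle contrast. With median centring the DEHP contrast had 12 of 15 Sertoli markers higher and 1 lower. Then 8 of 9 spermatogonial markers were higher and 0 lower, and 1 of 7 endothelial markers was higher and 2 lower. That setting shifted the whole contrast: 54.7% of all genes were higher, 16.3% lower, and the median of all genes was 0.30. What part these cells had in the values of the acrosomal and sperm surface transcripts was not tested.

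Since the spermatid markers moved with them, the 10 transcripts were also expressed relative to the median of the 33 spermatid markers on each array, an alternative added after the data had been seen. On this scale the median of all genes was -0.48 for DEHP minus vehicle and -0.74 for DEHP mouse 4 minus DEHP mouse 1. It was -0.76 for vehicle mouse 1 minus the mean of vehicle mice 2 and 4. No gene passed for DEHP minus vehicle. All 10 members lay below 0, as did 93.6% of all genes, and the lowest adjusted p among them was 0.687 in limma. The groups did not overlap for Acrbp, Zpbp and Izumo1, which were lower in both DEHP mice than in all vehicle mice (11.3% of all genes were). Izumo1 was at -0.15 and -0.38 in DEHP mice, against 0.18, 0.22 and 0.14 in vehicle mice, and Acrbp at -0.06 and -0.29, against 0.00, 0.29 and 0.06. Zpbp was at -0.17 and -0.31 in DEHP mice, against -0.11, 0.24 and 0.35 in vehicle mice. The probes of Zpbp and Izumo1 were dim, and Acrbp is given by its brighter probe only. The other Acrbp probe, which placed vehicle mouse 1 lower before this scaling, is not given on this scale.

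Between the DEHP mice, 4 members were still higher in mouse 4 relative to the spermatid markers, where 9.43% of all genes were: Spam1 by 1.22, Spaca1 by 0.79, Acrv1 by 0.50 and Spaca3 by 0.31. Acrbp was lower, by -0.24 (adjusted p = 0.00252 in limma), as were 81.3% of all genes. Acr at 0.03, Adam2 at 0.05, Adam3 at 0.09, Zpbp at -0.14 and Izumo1 at -0.24 were not called. In the vehicle contrast the members called higher were again Acrv1 at 0.77, Spaca3 at 0.68, Spaca1 at 0.55 and Spam1 at 0.45, against 7.31% of all genes.

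Called lower in that contrast were Adam2 at -0.78, Adam3 at -0.44, Zpbp at -0.40 and Acrbp at -0.17, against 84.7% of all genes. With loess Acr at -0.05 and Izumo1 at 0.00 were not called. Acr was called lower in that contrast with processed signals (-0.22, as were 70.5% of all genes) and with median centring (-0.17, 89.4%). Izumo1 was called higher there with processed signals (1.23, as were 8.84% of all genes) but not called with median centring (-0.18). Between the DEHP mice Izumo1 was not called with processed signals (0.35) but called lower with median centring (-0.74, as were 87.1% of all genes). Spam1, Spaca1 and Acrv1 were called higher in both contrasts with processed signals and with median centring too. Spaca3 was not called between the DEHP mice with median centring, at 0.12 (adjusted p = 0.135 in limma). Zpbp between the DEHP mice was at 1.23 and called higher with processed signals, and at -0.65 and called lower with median centring, so that its direction on this scale depended on the processing.

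With loess Acr had the smallest range over the 5 mice on this scale, with -0.04 and -0.02 in DEHP mice, against -0.02, 0.12 and -0.05 in vehicle mice. Adam2 was at -0.23 and -0.18 in DEHP mice, against -0.38, 0.31 and 0.48 in vehicle mice, so that vehicle mouse 1 was lowest for it. Spaca1 was at -0.72 and 0.07 in DEHP mice, against 0.58, -0.35 and 0.41 in vehicle mice, where vehicle mouse 1 was highest.

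**Figure D4:**
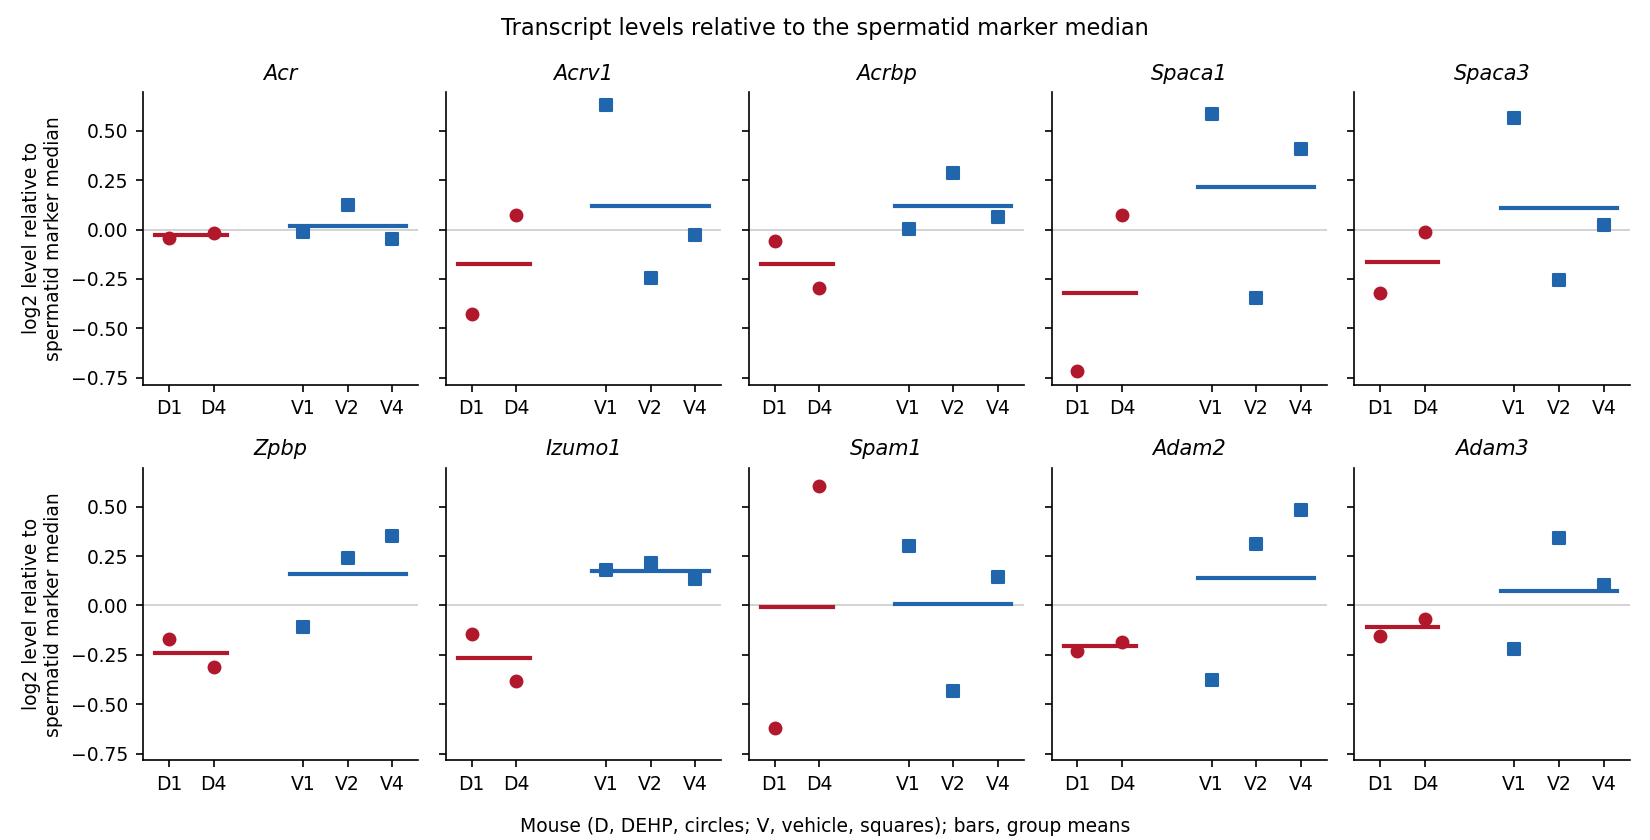
Log2 level of each transcript (vertical axis) relative to the median of 33 spermatid markers, centred on the 5 mice, in DEHP mice D1 and D4 (red circles) and vehicle mice V1, V2 and V4 (blue squares), with group means as bars. Acr stays between -0.05 and 0.12, while Spaca1, Spam1 and Acrv1 still differ by more than 1 between mice.

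Other genes of the same pathways were examined in the same comparisons. Of 30 measured genes of acrosome contents and formation, 19 lay above 0 and 11 below in DEHP minus vehicle, with a median of 0.10, and none passed. Zan, a zona-adhesion protein, was the only one without overlap of the groups (3.95% of all genes had both DEHP mice above every vehicle mouse). It was at 0.07 and 0.72 in DEHP mice, against 0.01, -0.42 and -0.39 in vehicle mice (difference 0.66, SE 0.28, adjusted p = 1.00 in limma). Spaca9 differed by 0.67 (SE 0.40), Actl9, an actin-like protein of the sperm head, by 0.61 (SE 0.55) and Zpbp2, the relative of Zpbp, by 0.33 (SE 0.30). In DEHP mouse 4, 25 of the 30 were higher and 2 lower than in DEHP mouse 1. Of all genes, 36.3% were higher and 41.1% lower. In vehicle mouse 1, 24 were higher and 2 lower than in the mean of vehicle mice 2 and 4, against 33.9% and 38.2% of all genes.

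Of 25 measured genes for other ADAM proteins and for the proteins that fold and deliver them, 19 lay above 0 and 6 below in DEHP minus vehicle, with a median of 0.28, and none passed. Calr3, the testis calreticulin that is needed in the mouse for Adam3 to mature, was at 0.18 and 0.59 in DEHP mice, against 0.22, -0.24 and -0.74 in vehicle mice (difference 0.64, SE 0.33). Ace, whose testis form is needed for the delivery of Adam3 to the sperm surface, was at 0.58 and 0.41, against 0.49, -0.59 and -0.89 (difference 0.82, SE 0.43). Adam32 was at -0.19 and 0.81 in DEHP mice, against -0.12, -0.20 and -0.30 in vehicle mice.

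Tex101 is a germ cell surface protein that is also needed in the mouse for Adam3 to reach the sperm. It was the only gene of this list without overlap (5.22% of all genes had both DEHP mice below every vehicle mouse). It was at -0.14 and -0.34 in DEHP mice, against 0.47, -0.03 and 0.04 in vehicle mice (difference -0.40, SE 0.24, adjusted p = 1.00 in limma). Between the DEHP mice 22 of the 25 were higher in mouse 4 and 2 lower, against 36.3% and 41.1% of all genes. In the vehicle contrast 20 were higher in vehicle mouse 1 and 1 lower, against 33.9% and 38.2% of all genes.

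Of 8 measured genes of sperm-egg fusion, 7 were higher in DEHP mouse 4 than in DEHP mouse 1 (36.3% of all genes were). All 8 were higher in vehicle mouse 1 than in the mean of vehicle mice 2 and 4 (33.9% of all genes were). Cd46 was among these, although vehicle mouse 2 was level with vehicle mouse 1 for it. Izumo2, a relative of Izumo1, was at -0.36 and 0.97 in DEHP mice, against 0.73, -0.94 and -0.40 in vehicle mice. The group differences were 0.51 for Izumo2 (SE 0.61), 0.23 for Izumo3 (SE 0.53), 0.18 for Izumo4 (SE 0.28) and 0.23 for Spaca6 (SE 0.53), a sperm protein needed for fusion in the mouse. None passed.

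On the egg side 2 genes were measured. Cd9, a tetraspanin that eggs need for fusion and that somatic cells also carry, was at -0.09 and -0.32 in DEHP mice, against -0.80, 0.72 and 0.50 in vehicle mice. Vehicle mouse 1 was thus lowest for Cd9 and highest for Izumo1. Zp3, a zona protein, did not overlap, at -0.16 and -0.14 in DEHP mice, against 0.08, 0.16 and 0.07 in vehicle mice. It lay near background, well above it on 2 arrays in the DEHP channel and on 6 in the vehicle channel. Zp3 thus passed the filter on dim signals through vehicle mice alone, where it was higher. Its lack of overlap is therefore not read as a result (5.22% of all genes had both DEHP mice below every vehicle mouse).

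The promoters of the 10 genes were read for the cAMP response element, which the germ cell activator CREM binds in spermatids. RefSeq windows of 250 bases before the gene start, on GRCm38.p6, were found for 7 of the 10 genes, Acr, Adam2 and Adam3 being those without one. The element TGACGTCA, searched on both strands, was in 1 of the 7, Izumo1, starting 96 bases before the gene start, and in 508 of 32851 windows of all genes (1.55%). Its shorter form TGACG, which the longer motif contains, was searched on both strands too. It was in 4 of the 7 (Acrbp, Izumo1, Spaca1 and Spaca3) and in 17.77% of all windows. The 7 genes had 9 windows, and a gene counted if any of its windows matched. The member counts are thus of genes and the shares over all are of windows. The Izumo1 and Spaca1 windows are shown because they hold the full element and a repeated shorter form, with the matches in capitals.
Izumo1, GRCm38.p6 chr7:45621561-45621810, plus strand: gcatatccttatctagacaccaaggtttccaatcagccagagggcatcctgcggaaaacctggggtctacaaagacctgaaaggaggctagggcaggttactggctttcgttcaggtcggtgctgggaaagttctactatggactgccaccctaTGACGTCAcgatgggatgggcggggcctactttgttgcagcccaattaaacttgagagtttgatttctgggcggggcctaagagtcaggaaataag
Spaca1, GRCm38.p6 chr4:34050066-34050315, minus strand: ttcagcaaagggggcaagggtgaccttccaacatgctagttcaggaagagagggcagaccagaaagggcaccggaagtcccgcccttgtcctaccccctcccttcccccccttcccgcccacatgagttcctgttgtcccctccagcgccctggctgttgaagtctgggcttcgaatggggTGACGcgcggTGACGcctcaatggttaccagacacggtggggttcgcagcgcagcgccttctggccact
Spam1, Acrv1 and Zpbp held neither form in this window.

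The genes outside all lists whose 5 mouse values came closest to the members' median profile were Lrrc28, Msl3l2, Rbks, Dusp10 and Abhd8, at Euclidean distances of 0.08 to 0.12 among 15635 genes. The members' medians were -0.27 and 0.59 in DEHP mice, against 0.39, -0.32 and -0.25 in vehicle mice. Lrrc28 was at -0.30 and 0.58 in DEHP mice, against 0.34, -0.32 and -0.30 in vehicle mice. With 5 mice such likeness is a description of these extracts.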

How the data were processed

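Per the file headers, the deposited intensity values (mean signals and median local backgrounds) were read with Feature Extraction 9.5.1.1. The deposited files also hold the software's processed intensity and its log10 ratio, which was used to check directions. The deposited flags mark spots above background, saturated or outlying. The deposited table of log2 ratios states neither scale nor direction. Against the scanner's log ratios its columns ran as DEHP over vehicle (r from 0.915 to 0.993, slopes from 0.842 to 0.932 in size, medians from -0.06 to 0.00), with filter and normalization unknown. The authors used limma, per the submitters' processing notes.

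Here R 4.3.3 and limma 3.58.1 were used. Intensities were corrected by normexp (offset 50) and normalized within arrays by loess (control spots at weight 0), and control and outlier spots were left out. A value per mouse (5 in all) and a dye effect were solved by least squares from the 12 log ratios. A probe entered where 50% or more of the arrays of 2 or more mice showed it well above background, and the brightest probe stood for a gene. Groups were compared by lmFit and eBayes on mouse values, with Benjamini-Hochberg adjustment over 15830 genes (threshold 0.05). The spread is that between mice, and the numbers of arrays and mice limit precision. Extracts were compared on the 12 arrays. The functions were tested on simulated data.

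The members, lists and tests were chosen with earlier results of these data known. The text names all members, the 4 genes of lowest p from each related list, up to 2 of highest intensity from marker lists, and the 5 genes nearest in profile. Mouse numbers were checked for pairing: the correlation of deviations was -0.73 for the mice numbered 1 and -0.56 for those numbered 4. Because 2 DEHP mice give mirrored deviations, these values cannot show whether the numbers pair the mice. The main fit did not pair mice by number, and a fit with a replicate block is given below.

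Per array, 45.4% to 54.4% of red and 35.5% to 46.1% of green probe spots were well above background. The 12 arrays lay on 3 slides. Further mice of the exposure were not analysed here.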

Additional observations from a re-analysis of the deposited data

How the results depend on the processing

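No gene and no member passed for DEHP minus vehicle under any of 18 alternatives (unadjusted p under 0.05 for 14 to 1611 genes, 136 in the main fit), and no value is called. The members' median of 0.17 was -0.35 with the spermatid marker median as a covariate and ran from -0.23 to 0.68 with one mouse left out. Without a DEHP mouse, the spread of the remaining one is assumed equal to that of the vehicle group. With one mouse left out, Acrv1 ran from -0.42 to 0.77, Acrbp from -0.056 to 0.40, Spaca1 from -0.81 to 0.68, Spaca3 from -0.31 to 0.69, Zpbp from -0.21 to 0.34, Izumo1 from -0.20 to 0.27, Spam1 from -0.50 to 1.42, Adam2 from -0.25 to 0.49 and Adam3 from -0.11 to 0.67, each crossing 0, and Acr from 0.057 to 0.78. With the spermatid covariate the sign turned for Acr (-0.10), Acrv1 (-0.86), Acrbp (-0.21), Spaca3 (-0.75), Zpbp (-0.26), Izumo1 (-0.43), Spam1 (-0.68), Adam2 (-0.10) and Adam3 (-0.081), and with the Leydig covariate for Izumo1 (-0.031). Relative to the spermatid markers it turned for Acr (-0.050), Acrv1 (-0.29), Acrbp (-0.30), Spaca3 (-0.28), Zpbp (-0.40), Izumo1 (-0.44), Spam1 (-0.012), Adam2 (-0.35) and Adam3 (-0.19). On slide 1 alone it turned for Acrbp (-0.051), Spaca1 (0.0045) and Izumo1 (-0.019). On slide 2 it turned for Acrv1 (-0.11) and Izumo1 (-0.15), and on slide 3 for Adam2 (-0.038). Slides 1 and 2 held vehicle mice 1 and 2, with DEHP in red on slide 1 and in green on slide 2. Slide 3 held vehicle mouse 4 alone, in both orientations. These values have no dye term, so that slide, dye and vehicle mouse cannot be told apart in them. With the replicate block, which gives the values without vehicle mouse 2, the median was 0.0050 and the sign turned for Acrv1 (-0.16), Spaca3 (-0.15), Zpbp (-0.046) and Izumo1 (-0.11). The block changed no call. Between extracts, relative to the spermatid markers, the members called higher numbered 4 in each contrast, against 10 and 9. The sign turned for Acrbp (-0.24), Zpbp (-0.14) and Izumo1 (-0.24) in the DEHP contrast and for Acr (-0.053), Acrbp (-0.17), Zpbp (-0.40) and Adam3 (-0.44) in the vehicle contrast, and for Adam2 in the vehicle contrast (0.067) with processed signals. On the spermatid scale, processed signals turned the sign in the DEHP contrast for Acr (-0.090), Zpbp (1.23), Izumo1 (0.35), Adam2 (-0.049) and Adam3 (-0.097) and in the vehicle contrast for Zpbp (0.17), and median centring for Izumo1 in the vehicle contrast (-0.18), combinations chosen after seeing the data. The members' median between the DEHP mice was 1.58 with median centring and 1.25 with processed signals, against 0.76, and in the vehicle contrast 0.69 and 1.28, against 0.71. The cause of these turns was not tested. Zpbp and Izumo1 have no value from the authors' deposited table or under the strict filter. A dye effect for each slide was not estimable, and a separate one for slide 3 was fitted instead. The group comparison is limited by 5 mice, and Zpbp and Izumo1 by low signal over background.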

Other observations

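Within the ADAM list, the genes differed in how vehicle mouse 1 stood to the mean of vehicle mice 2 and 4. Adam26a, Adam4 and Adam24 were higher in vehicle mouse 1, by 1.25, 1.23 and 1.13. Adam1b, the alpha subunit that pairs with Adam2 in mouse fertilin, differed by 0.00, Adam5 by 0.09 and Adam32 by 0.12, close to the -0.04 of Adam2, and none of these 3 passed in limma. All 6 were higher in DEHP mouse 4 than in DEHP mouse 1, from 0.39 for Adam5 to 1.83 for Adam4. These genes were picked after their values were seen, and no test was made of the grouping.

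Cd46, in the mouse a protein of the inner acrosomal membrane, had the widest range in the fusion list. It was at -1.23 and 1.18 in DEHP mice, against 0.78, 0.75 and -1.48 in vehicle mice, with vehicle mouse 2 level with vehicle mouse 1. It too was picked after its values were seen.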
